A study of Hordeum vulgare with 6 samples.

Results

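Wide H3K27me3 domains of barley endosperm were taken as merged stretches of at least 80 kb with a peak in every replicate; the whole stretch need not be covered in each. Peaks of 3 lists, 1 per ChIP library, were merged where they overlapped or touched. Merged regions with a peak in all 3 lists, on chromosomes 1H to 7H and with a merged width of at least 80 kb, were kept. This gave 446 domains out of 6846 merged regions in all, and out of the 3237 regions that had a peak in all 3 lists on the 7 chromosomes. The other 2791 of these are called narrower regions here. The domains made up 13.8% of the 3237 regions by number and, with 103 Mb, 64.8% by length. They covered 2.46% of the chromosomes.

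H3K27me3, the trimethylated lysine 27 of histone H3, is written by Polycomb repressive complex 2 and is associated with genes that are kept silent. The complex can bind nucleosomes that already carry the mark and modify their neighbours, by which the mark can spread into long blocks. In plant endosperm, the tissue that nourishes the embryo and stores starch in cereals, the mark is known for its part in parental imprinting and in the timing of grain development. Barley chromosomes are large, with gene-rich ends and long, gene-poor, rarely recombining middles.

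All libraries came from manually dissected endosperm of Hordeum vulgare cultivar Morex, a 6-rowed spring barley, at 16 days after pollination. There were 3 H3K27me3 ChIP libraries, numbered 1 to 3, and 3 input libraries, which were not analysed here as separate measurements. Tissue, stage and genotype were the same throughout, so there is no contrast between conditions. The sheared chromatin was pooled before precipitation, and no label states that each replicate had its own tissue, so the spread between them may be technical. Per list, the 4273, 5593 and 5815 peaks in replicates 1, 2 and 3 carry a fold but no read counts, and the depth of each library is therefore unknown. Fold is read here as the ChIP signal over the peak caller's background, and a domain's fold in a replicate is the highest fold among the peaks of that list in it.

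The domains ran from just over the threshold to several megabases. The median width was 158 kb, with quartiles at 104 and 253 kb. Of the 446, 151 were at least 200 kb wide, 35 at least 500 kb and 8 at least 1000 kb. The 93 widest held at least 50% of the domain length. Since width chose the members, these values describe them and are not tested. The threshold cut through a continuous distribution. The 3 domains just inside it were 80.2 kb on 6H, 80.2 kb on 7H and 80.2 kb on 2H, with mean folds of 2.25, 13.2 and 11.2. The 3 regions just outside it were 79.7 kb on 7H, 79.5 kb on 1H and 79.5 kb on 5H, with mean folds of 2.71, 6.55 and 5.37.

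Merging can lengthen a region by chaining peaks of different lists, so the width was also examined within each list. A single peak of at least 80 kb was present in 382 of the 446 domains in replicate 1, in 407 in replicate 2 and in 400 in replicate 3, and in 350 domains in every list. Stretches covered by all 3 lists base by base summed to 89.2 Mb over the domains, and in 369 domains (82.7%) they added up to at least 80 kb within the domain. In 261 domains at least 90% of the width was common to the 3 lists. In 40 domains under 50% was common. In 2 domains no base was common to all 3 lists. The 40 domains with little in common had a median mean fold of 2.32, and 32.5% of them lay in the distal parts of the chromosomes. For these the merged width is longer than what the lists share.

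Position was not used to choose the domains, and it differed from that of the narrower regions. Chromosomes were divided by midpoint into the first 10%, 10 to 30%, 30 to 70%, 70 to 90% and the last 10% of their length, measured up to the last peak. In barley assemblies the first bases are by convention those of the short arm. Of the 446 domains, 253 (56.7%) had their midpoint in the first or last 10%, against 1097 (39.3%) of the narrower regions. The short-arm end held 146 domains and the long-arm end 107, while 56 lay in the 10 to 30% zone, 81 in the 30 to 70% zone and 56 in the 70 to 90% zone. The narrower regions were spread more evenly, with 561, 421, 831, 442 and 536 in the same zones. Among the domains the distal share did not rise steadily with width. It was 63.6% from 80 to 120 kb, 51.4% from 120 to 200 kb, 53.6% from 200 to 400 kb and 57.4% above that. With the threshold at 50 kb, 54.7% of 689 regions were distal, so a high distal share is not particular to the 80 kb threshold.

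Position was also compared within each list by itself, from single peaks. The smaller peaks here were not limited to regions of all 3 lists and can include pieces of split domains, so they differ from the narrower regions. Of the peaks of at least 80 kb, 58.2% were distal in replicate 1, 57.3% in replicate 2 and 55.7% in replicate 3. Of the peaks under 80 kb, 38.4%, 34.7% and 35.2% were distal in the same replicates. The ranges did not overlap, and the difference within a replicate was 21.0 ± 1.5 percentage points (SD, n = 3; exact permutation test on paired values, two-sided p = 0.25, the smallest that 3 pairs allow). The excess was larger at the short-arm end, which held 32.9% ± 0.45 of the wide and 18.8% ± 1.3 of the other peaks, than at the long-arm end, with 24.1% ± 0.86 and 17.3% ± 0.76 (SD, n = 3 each); the difference between the ends was not tested. The middle zone held 18.4% ± 0.37 of the wide and 31.8% ± 1.8 of the other peaks (SD, n = 3 each). This sets 2 classes of region against each other and not against the sequence in which peaks could be called.

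**Figure D1:**
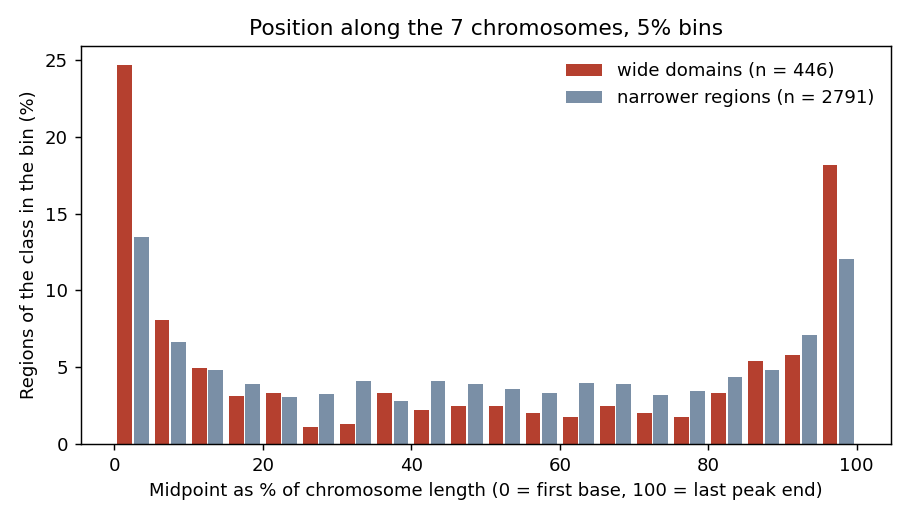
Percentage of the 446 wide domains and of the 2791 narrower regions in each 5% bin of chromosome position, over the 7 chromosomes. The first bin holds 24.7% of the wide domains against 13.5% of the narrower regions and the last bin 18.2% against 12.1%, while the wide domains are the scarcer class in most bins between 25% and 80%.

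By length, the domains covered 8.21% of the sequence in the first 10% of the chromosomes, 4.96% in the last 10% and 1.10% in the 30 to 70% zone. Narrower regions covered 3.21%, 2.88% and 0.887% of the same zones. Median width hardly followed position, at 149 kb in both distal zones, 176 kb in the 10 to 30% zone and 167 kb in the middle zone. Of all regions of a zone, 20.7% were wide at the short-arm end, 16.6% at the long-arm end and 8.88% in the middle. The outermost 1 Mb at both ends of the chromosomes, 0.334% of their length, was reached by 13 of the 446 domains (2.91%) and by 40 (1.43%) of the narrower regions. The median distance to the nearer end was 39.4 Mb for the domains and 92.0 Mb for the narrower regions.

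Chromosomes differed in how many domains they carried. 7H had 98, 6H 68, 2H 65, 5H 63, 3H 62, 1H 55 and 4H 35. From the peaks of at least 80 kb in each list, 7H had 13.9, 14.2 and 14.1 per 100 Mb in replicates 1, 2 and 3, and 4H had 5.24, 5.41 and 5.73. The other 5 chromosomes had means between 9.01 ± 0.70 (3H) and 10.7 ± 0.64 (6H; SD, n = 3 each). 7H was thus above and 4H below all other chromosomes in every list, by more than the spread between replicates, whereas 3H with 9.01 ± 0.70 and 2H with 9.27 ± 0.31 did not differ beyond it. No test was made between chromosomes. Domains covered 3.81% of 7H and 1.09% of 4H. The same 2 chromosomes were at the extremes for the share of regions that were wide, 17.4% on 7H and 8.97% on 4H.

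The arms were not alike. 1H carried 27 domains in its first 10% and 6 in its last 10%, and 2H 26 and 14. 3H had the opposite balance, with 15 and 24. On 4H only 5 domains lay in the first 10% and 9 in the last, and 4H was alone in that the distal share was lower for the domains (40.0%) than for the narrower regions (43.9%). On 4H the first domain began 8390 kb from the start of the chromosome. On the other 6 chromosomes it began between 81.5 kb, on 6H, and 1768 kb, on 7H. At the far end of 4H the last domain ended 136 kb before the last peak.

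Domains were unevenly spaced. Between neighbours on a chromosome the median gap was 2.73 Mb, with quartiles at 0.603 and 13.2 Mb, and 137 of the 439 gaps (31.2%) were under 1 Mb, of which 32 were under 0.1 Mb. Narrower regions, which are more numerous, had a median gap of 0.837 Mb, with quartiles at 0.280 and 1.92 Mb. Within each list, neighbouring peaks of at least 80 kb had a median gap of 2.80 ± 0.069 Mb (SD, n = 3). Whether domains lie closer than their uneven density along the chromosomes gives was not tested. Spacing followed position. The median gap was 0.914 Mb at the short-arm end, 1.33 Mb at the long-arm end and 16.5 Mb in the 30 to 70% zone.

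**Figure D2:**
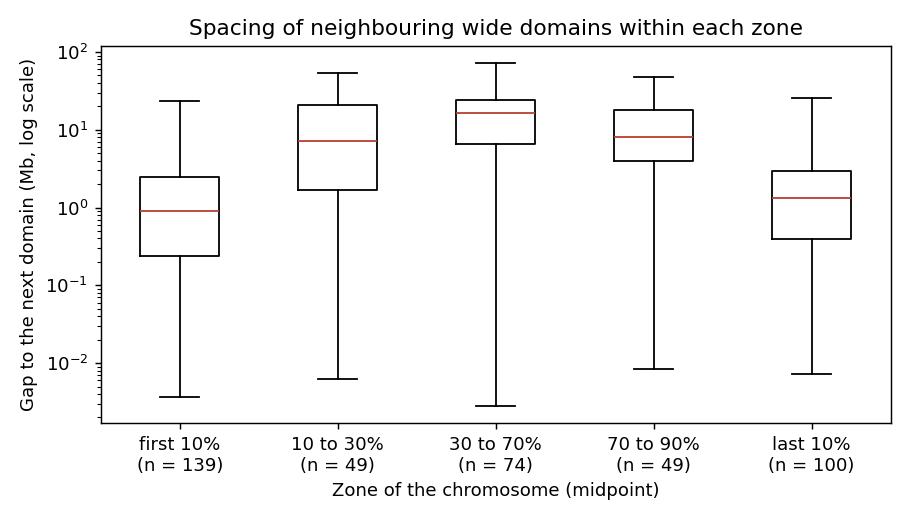
Gap from the end of a wide domain to the start of the next, in Mb on a log scale, for neighbours within the same zone of a chromosome; boxes show quartiles and median, whiskers the lowest and highest gap. Medians are 0.914 and 1.33 Mb in the distal zones against 7.20, 16.5 and 8.09 Mb in the zones between, and every zone holds gaps of a few kb.

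Linking domains up to 1 Mb apart gave 67 groups with 204 domains and left 242 domains alone. Of these groups, 10 held at least 5 domains each, 60 domains in all, and 9 of the 10 were distal by their mean position. Of the 60 domains in such groups, 90.0% were distal, against 77.8% of the 144 in groups of 2 to 4 and 36.0% of those alone. Their median mean fold was 11.8, 8.15 and 6.68 in the same order, and their median width 167, 149 and 158 kb. Gaps were shorter in the distal zones, so a fixed link of 1 Mb gathers distal domains more readily. Distal domains also had the higher folds, and fold was not compared between group sizes within the distal zones.

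The largest group had 9 domains and lay at the end of the long arm of 7H, from 627951305 to 632314051. Its domains filled 57.6% of 4.36 Mb. The next, with 7 domains, was on 2H from 5887024 to 8965722 and opened with the strongest domain of that chromosome. A group of 6 on 7H from 34566564 to 38570849 had 71.4% of its 4.00 Mb inside domains. The group that was not distal had 6 domains on 5H from 515452838 to 518400571, at 27.2% of its span.

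The shortest gap was 2.81 kb, on 7H, between a domain from 283198053 to 283395030 with a mean fold of 3.82 and one from 283397837 to 283607709 with a mean fold of 12.1. On 5H, 3.63 kb separated a domain of 1061 kb, from 52588587 to 53649705 with a mean fold of 11.7, from one of 106 kb with a mean fold of 2.68. A further pair on 5H, between 8022249 and 8242928, was 3.66 kb apart with mean folds of 3.37 and 3.20. Neighbours that nearly touch can thus differ in fold or be alike.

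The longest stretch without a domain was 84.8 Mb on 3H, from the end of a domain at 396402897 to the next at 481190733. The second and the third were both on 4H, 71.9 Mb after 290792856 and 65.0 Mb after 169322906. These stretches were not free of the mark, since they held 37, 32 and 32 narrower regions of all 3 lists. Of the 2791 narrower regions, 172 (6.16%) lay within 100 kb of a domain, while these flanks made up 2.02% of the chromosome length outside domains, and 150 domains (33.6%) had at least 1 such neighbour. The median mean fold of these 172 was 2.75, against 2.60 for the rest. Both classes were denser near the chromosome ends, and whether narrower regions lie near domains beyond this shared position was not tested.

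Fold was called in the same peaks as width, and it is described here without a test. The domains had median folds of 8.10, 7.84 and 7.72 in replicates 1, 2 and 3, which is 7.89 ± 0.19 (SD, n = 3). The narrower regions had 2.64, 2.53 and 2.70, or 2.63 ± 0.086 (SD, n = 3). The domains lay above the narrower regions in every list, and the values of a class were close to each other. Domains covered a wide range, with quartiles at 3.66 ± 0.035 and 16.3 ± 0.59 (SD, n = 3 each), and a highest fold of 96.1 ± 5.0. A mean fold of at least 10 was found in 194 domains (43.5%) and in 42 narrower regions (1.50%), and one of at least 20 in 76 domains and 1 narrower region. At the other end, 70 domains (15.7%) had a mean fold under 3, as had 66.1% of the narrower regions.

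**Figure D3:**
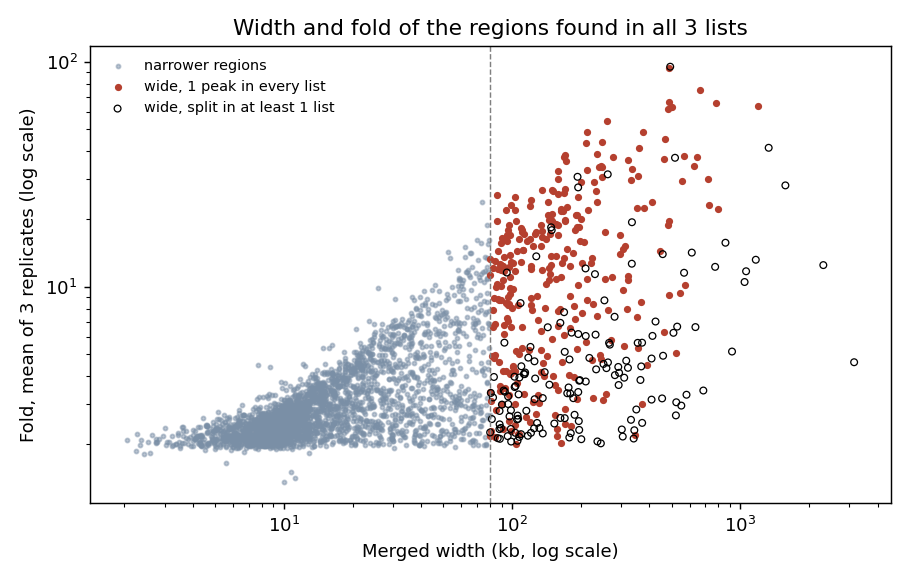
Merged width in kb against fold, the mean of 3 replicates, both on log scales, for the 3237 regions found in all 3 lists; the dashed line marks 80 kb. Filled points are the 297 wide domains called as 1 peak in every list and open circles the 149 split in at least 1 list; the open circles gather at low fold, and the widest domain, of 3157 kb, has a mean fold of 4.62.

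Above 80 kb, width said less about fold than below it. Spearman's rho between width and mean fold was 0.25 across the 446 domains and 0.64 across the narrower regions. Both are descriptions across regions of the same 3 libraries. Median fold rose from 5.31 ± 0.32 in domains of 80 to 120 kb to 8.85 ± 0.38 in those of 120 to 200 kb, was 7.98 ± 0.42 from 200 to 400 kb and 13.2 ± 0.45 in the 54 domains of at least 400 kb (SD, n = 3 each). In every list the class of 200 to 400 kb was below that of 120 to 200 kb, so the rise was not steady. Narrower regions of 40 to 80 kb had 4.28 ± 0.064 (SD, n = 3).

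Distal domains had the higher folds. The median was 10.0 ± 0.12 at the short-arm end and 11.7 ± 0.27 at the long-arm end, against 4.95 ± 0.28 in the 10 to 30% zone, 4.59 ± 0.27 in the middle and 6.50 ± 0.64 in the 70 to 90% zone (SD, n = 3 each). Each replicate showed the distal zones above the other 3. Narrower regions differed less with position, between 2.52 ± 0.080 in the middle and 2.79 ± 0.11 at the short-arm end (SD, n = 3 each). Among domains with a mean fold of at least 20, 59 of 76 (77.6%) were distal, against 24 of 70 (34.3%) of those under 3. By chromosome, the median fold was highest on 3H with 10.5 ± 0.056 and on 7H with 10.4 ± 0.51, which did not differ beyond their spread, and lowest on 6H with 5.61 ± 0.50 and on 4H with 5.74 ± 0.85 (SD, n = 3 each).

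The strongest domain of each chromosome was picked by its mean rank of fold over the 3 lists, and its values describe it. On 7H, from 8258193 to 8751535, the folds were 101, 91.3 and 92.6 in replicates 1, 2 and 3. On 5H, from 129592645 to 130080303, they were 97.1, 89.7 and 96.0, and this domain is the exception in position, lying at 22.1% of the chromosome length. On 1H, from 3646597 to 4312458, they were 86.4, 71.2 and 66.4. The other 6 were distal, within the first 4% of the chromosome or, on 4H, at 91.9%.

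On 6H, from 18559411 to 19060786, the folds were 57.4, 67.9 and 63.4. On 2H, from 5887024 to 6146468, they were 58.7, 57.9 and 46.8. The domain on 4H, from 560706993 to 560920410, had 50.7, 46.7 and 49.5, and that on 3H, from 14468603 to 15033331, had 39.0, 38.2 and 37.0. Replicate 1 was highest in 6 of these 7 domains and lowest in the one on 6H. Of the 7, 6 were called as 1 peak in every list.

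**Figure D4:**
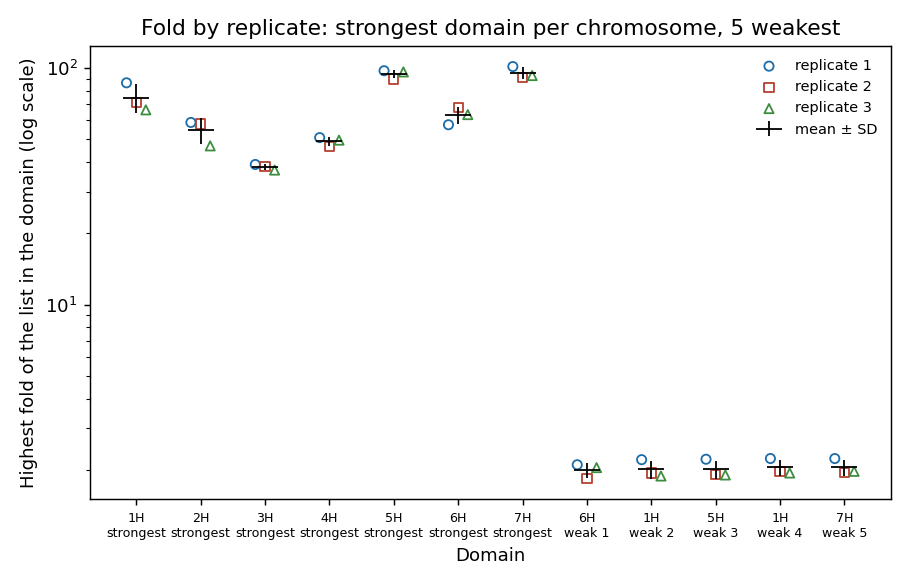
Fold in each replicate, on a log scale, for the strongest wide domain of each chromosome and for the 5 wide domains with the lowest mean fold, with mean ± SD (n = 3). The strongest lie between 37.0 and 101 and the weakest between 1.84 and 2.24, with a replicate spread far smaller than the distance between the groups, which were picked by these folds.

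The weakest domains were as wide as many others. The lowest mean fold was on 6H, from 226748340 to 226852104, with 2.10, 1.84 and 2.05 in replicates 1, 2 and 3. There replicate 3 called the whole 104 kb, while peaks of replicates 1 and 2 covered 6.71% and 2.39% of it. On 5H, from 74695317 to 74858763, the folds were 2.22, 1.92 and 1.91, and replicate 2 covered all of it but replicates 1 and 3 only 3.79% and 4.42%. On 1H, from 237974680 to 238073774, the folds were 2.24, 1.97 and 1.94, with 5.40% covered in replicate 1 and 86.1% and 93.6% in the others.

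Being weak did not always go with disagreement on extent. On 1H, from 264650775 to 264895768, with folds of 2.21, 1.94 and 1.89, the 3 lists shared 83.9% of 245 kb. On 7H, from 533424335 to 533660998, with folds of 2.24, 1.95 and 1.97, they shared 82.4% of 237 kb. In all 5 of these weakest domains replicate 1 had the highest fold.

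Replicates ranked the domains alike. Spearman's rho across the 446 domains was 0.98 for replicates 1 and 2 and 0.97 for the other pairs, against 0.77, 0.79 and 0.81 across the narrower regions for replicates 1 and 2, 1 and 3, and 2 and 3. The domains span a wider range of fold, and a wider range can raise a rank correlation. The coefficient of variation of fold over the replicates was similar, with a median of 10.4% in the domains and 10.6% in the narrower regions. It was highest on 3H, from 603788567 to 604201084, at 46.5%, with folds of 7.94, 7.38 and 2.82 in replicates 1, 2 and 3. There replicates 1 and 2 split the domain into 12 and 17 peaks, of which the strongest set the fold, and replicate 3 called 1 peak over its whole length. The domain on 6H from 117124755 to 117417955 was similar, with folds of 5.52, 2.84 and 2.61, and 6, 1 and 1 peaks. On 1H, from 3019729 to 3311812, the folds were 6.59, 3.31 and 3.30, with 8, 1 and 2 peaks.

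Not every large spread came with splitting. On 6H, from 336198458 to 336587330, the folds of 4.68, 6.17 and 2.61 came from 1 peak in each list, with 97.8% of the width shared. On 7H, from 630643989 to 630874857, they were 11.5, 7.49 and 15.1, with 2, 1 and 2 peaks. With the length-weighted mean fold of a list's peaks in place of the highest, the median of the domains was 7.72 ± 0.19 (SD, n = 3).

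Most domains held 1 peak in a list, whatever share of the domain that peak covered. A list had 1 peak in 362 of the 446 domains in replicate 1 (81.2%), in 379 in replicate 2 (85.0%) and in 362 in replicate 3 (81.2%). In 297 domains (66.6%), called unbroken here, this held in all 3 lists, in 75 domains in 2 lists, in 62 in 1 list and in 12 in none. A single peak could be short, since 7, 2 and 4 of the 297 were covered under 50% in replicates 1, 2 and 3. The mean number of peaks per domain was 1.43, 1.29 and 1.38 in replicates 1, 2 and 3, and the highest 14, 17 and 11. Narrower regions, which have less room for a break, had 1 peak in every list in 93.8%. The list's peaks covered a median of 97.3%, 98.4% and 98.2% of a domain in replicates 1, 2 and 3, against 83.8%, 90.8% and 95.2% of a narrower region. An edge shift of a given length is a larger share of a narrower region, so the 2 classes are not on equal terms here. The order between replicates 2 and 3 was thus not the same in both classes, and replicate 1, the shortest list, was lowest in both.

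Splitting went with low fold. Among domains with a mean fold of at least 20, 69 of 76 (90.8%) were 1 peak in every list, and among those with a mean fold under 3, 22 of 70 (31.4%). The 149 domains split in at least 1 list had a median fold of 3.81 ± 0.041, against 11.7 ± 0.29 in the 297 unbroken ones (SD, n = 3 each). They were wider, with a median of 194 kb against 149 kb, and 49.0% of them were distal against 60.6%. Among the 54 domains of at least 400 kb, 46.3% were unbroken, against 71.5% of those of 80 to 120 kb. Calling breaks and fold come from the same peaks, so that these values are a description.

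**Figure D5:**
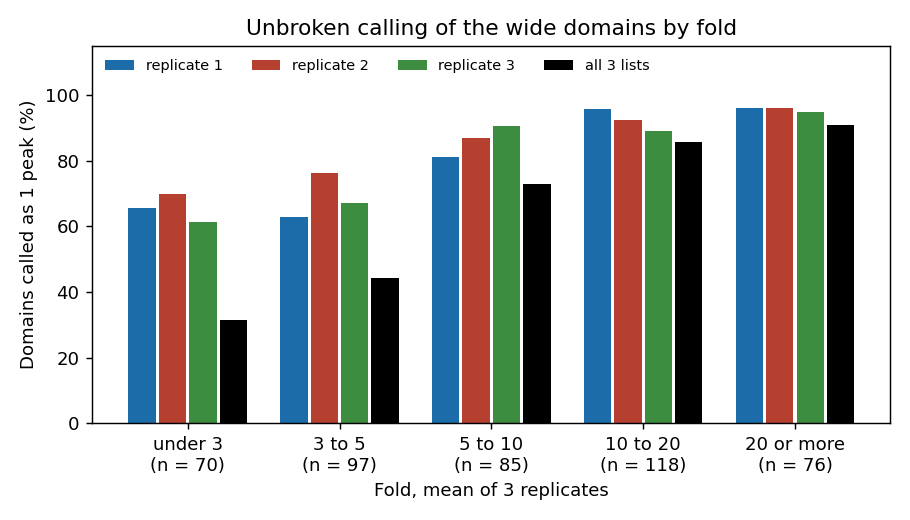
Percentage of the wide domains called as 1 peak, for each replicate and for all 3 lists together, in 5 classes of mean fold with the number of domains under each. The share for all 3 lists climbs from 31.4% under a fold of 3 to 90.8% at 20 or more, and each replicate is higher at 20 or more than under 3, though replicates 1 and 3 each dip at 1 step in between.

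The most fragmented domain was the one on 3H described above, with 30 peaks over the 3 lists. Next came a domain on 7H from 10272824 to 10782600, with 10, 8 and 1 peaks in replicates 1, 2 and 3 and folds of 6.40, 7.23 and 5.10. On 6H, from 201839210 to 202171294, replicate 1 had 14 peaks covering 50.9% of the domain and each of the others had 1 peak, with folds of 2.20, 3.27 and 2.21. On 3H, from 151754847 to 152098309, replicate 1 had 13 peaks and the others 1 each, at folds of 2.56, 2.05 and 2.31. A domain near the start of 3H, from 479873 to 796422, was split in all 3 lists, into 4, 5 and 5 peaks, with folds of 4.44, 4.20 and 5.43. In 4 of these 5 domains at least 1 list saw 1 unbroken peak.

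The widest domain of each chromosome showed few breaks, except on 4H. That domain, from 570352813 to 570870683, was split into 2, 1 and 6 peaks, with folds of 38.2, 27.1 and 46.9 in replicates 1, 2 and 3. The widest of all, 3157 kb on 5H from 118307746 to 121464566, had 1, 3 and 2 peaks with folds of 4.09, 4.75 and 5.02, and its lists shared 97.2% of the width. The domain of 2314 kb on 2H, from 575561053 to 577874569, had 1, 2 and 2 peaks with folds of 13.8, 11.0 and 12.6. The domain of 627 kb on 3H, from 607754229 to 608381361, was 1 peak in every list, with folds of 35.8, 35.3 and 32.3. The widest domains were therefore not the strongest of their chromosomes on any of the 7.

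The edges of the unbroken domains were placed more closely at the start than at the end. Over the 297, the median distance between the outermost starts of the 3 lists was 1.43 kb and that between the outermost ends 4.56 kb. In the domains split in at least 1 list these medians were 5.0 and 10.8 kb. Both edges agreed within 5 kb in 139 of the 297 unbroken domains. The start was within 5 kb in 244 of the 297 and the end in 161. The end spread was larger than the start spread in 212 of the 297 (71.4%), against 55.4% of the 2619 narrower regions with 1 peak in every list, whose median spreads were 1.49 kb for starts and 1.66 kb for ends.

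To measure the domains in a list that had not chosen them, width was taken from 2 lists and the values read in the third. With replicate 1 left out, 443 regions were wide, and 434 of them (98.0%) had a peak in replicate 1. With replicate 2 left out it was 435 of 435, and with replicate 3 left out 430 of 431 (99.8%). Of the regions under 80 kb, 77.1%, 93.0% and 95.9% had a peak in the list left out. The wide regions were recovered more often in each of the 3 replicates, by 10.6 ± 9.1 percentage points (SD, n = 3; exact permutation test on paired values, two-sided p = 0.25, the smallest that 3 pairs allow). Most of this difference and its spread came from replicate 1.

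Among the regions recovered, the median fold in the list left out was 8.19, 8.30 and 8.29 for wide regions, against 2.65, 2.54 and 2.70 for the others. The difference was 5.63 ± 0.12 (SD, n = 3; exact permutation test on paired values, two-sided p = 0.25, the smallest that 3 pairs allow), higher in 3 of 3 replicates. Peaks of that list covered a median of 97.1%, 98.4% and 98.3% of the wide regions and 74.4%, 89.2% and 94.5% of the others. The difference of 11.9 ± 9.8 percentage points was positive in 3 of 3 replicates (SD, n = 3; exact permutation test on paired values, two-sided p = 0.25). Counting all regions, recovered or not, 79.9%, 86.0% and 81.7% of the wide ones had exactly 1 peak. For the others it was 75.0%, 90.0% and 93.7%, so the replicates did not share a direction (exact permutation test on paired values, two-sided p = 0.75). A region without a peak counts against this share, so it mixes recovery with splitting and does not compare splitting alone. In regions with a peak in all 3 lists, narrower regions had 1 peak in 97.4%, 96.9% and 97.7%, above the domains in each replicate. Recovery counted any overlap, which a large region meets more readily by its size alone. Covered share also depends on size, since an edge shift of a given length is a larger share of a narrow region. Its test therefore cannot separate coverage from size. The list left out may come from the same pooled chromatin as the others, and width and fold come from the same kind of peak call. These readings therefore describe how alike the lists are and are not independent tests of the domains.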

How the data were processed

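Peak lists of 3 ChIP libraries in 9-column broadPeak format, without header, were used. The submitters' processing notes name bcl2fastq, HISAT2 2.1.0, GATK, MACS2 and deepTools without roles; calling settings, the use of the inputs and the genome build are not given in the sources used here. Per the column order of the deposited lists, column 7 is a fold (a ratio of ChIP signal to background) and columns 8 and 9 are −log10 p and −log10 q. The deposited score, column 5, restates the −log10 q (times 10, decimals dropped, in 99.9% of peaks) and was not used. The lowest −log10 q was 1.03, 1.01 and 1.04 in the 3 lists. A weak or shallow library can pass such a threshold less often, which may shorten or split its peaks. Whether this occurred here was not tested. Starts were read as 0-based and are printed 1-based.

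Peaks were merged with pandas 2.3.3 and numpy 2.4.6 under Python 3.11.15, exact tests used scipy 1.17.1, and the merging was tested on simulated lists. Chromosome length was taken as the largest peak end. Named domains are the widest and the strongest of each chromosome, the 5 with the lowest fold, with the most peaks and with the largest coefficient of variation, the 3 on each side of the threshold, and the 3 shortest and longest gaps. The members and these rules were chosen with earlier results of these data known. The readings in a left-out list and within single lists, and the groups of domains, were added after the lists were seen. Alternatives are in the closing section. No sequence is shown, as no genome was used here.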

Additional observations from a re-analysis of the deposited data

Results flagged for a closer look

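Some sequence outside the 7 chromosomes carried blocks of the same size. On the sequence named Un, 35 regions of at least 80 kb had a peak in all 3 lists. They had a median width of 126 kb, a highest width of 943 kb and 6.07 Mb in all, with median folds of 7.25, 6.51 and 7.59 and 1 peak in 82.9%, 82.9% and 74.3% of regions in replicates 1, 2 and 3. They were set aside because Un has no position along a chromosome.

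On the chromosomes, 10 regions of at least 80 kb had a peak in only 2 lists, and none in 1 list. Replicate 1 was the missing list in 9 of them and replicate 3 in 1. Their widths ran from 101 to 370 kb, and their highest mean fold was 2.40.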

How the results depend on the processing

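For 8 results, 70 alternatives were computed; 38 stayed within 1 SD of the replicates, the 95% exact binomial interval or, for counts, 1.5 times the main value, and 32 moved further. The causes were not tested beyond what each setting fixes. The number of domains was 689 at 50 kb and 295 at 120 kb. At a −log10 q of at least 5, 364 domains held 76.1% of the length of regions of all lists, with 63.2% distal, a median gap of 2.55 Mb, a fold of 10.8 and 1 peak in 94.7%. At a fold of at least 3, 345 domains held 77.7%, with 63.2% distal, a fold of 11.5 and 1 peak in 96.4%; both settings remove weak peaks by construction. At 50 kb the domains held 74.5% of the length, with a gap of 2.20 Mb, a fold of 6.39 and 1 peak in 84.7%; at 120 kb these were 55.6%, 4.81 Mb and 9.35. Requiring 2 of 3 lists gave 60.7% of the length. Merging peaks up to 5 kb apart gave 1 peak in 79.1%. The distal share was 42.8% with 5% of the length at each end and 73.5% with 20%. Leaving out each replicate gave 431 to 443 domains, 61.3% to 64.4% of the length, 55.8% to 58.0% distal, gaps of 2.68 to 2.81 Mb, folds of 7.84 to 8.34, 1 peak in 86.0% to 87.8%, a covered share of 99.0% to 99.3% and 975 to 993 overlapped coding genes. No paired analysis was possible because ChIP and input, the groups that share replicate numbers, cannot be compared without input peak lists; the paired values in the report set region classes against each other within a list. Gene starts inside domains were not run, as the gene table gives no strand. Depth is unknown, so its effect could not be measured.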

Other observations

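Annotated genes were counted in the domains with the RefSeq gene table of the MorexV3 assembly. The peak lists name no build, so the counts below hold only if the positions are on that assembly, and no position of the table is printed. This was examined in the lists. The last gene of each chromosome lay between 411 kb before and 253 kb after the last peak. Of the narrower regions, 7.56% overlapped a protein-coding gene with positions as given, against 13.8% and 14.5% with the genes moved by 10 kb in either direction and 17.3% to 19.1% with moves of 100 to 5000 kb. Among the moves tried, the share was lowest at the positions as given.

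The wide domains overlapped 1018 protein-coding genes, or 9.87 per Mb, against 7.30 per Mb over the chromosomes. Within zones, the domains held 13.4 coding genes per Mb at the short-arm end, where the zone as a whole had 14.6, and 15.7 at the long-arm end, where it had 19.1. In the middle zone they held 2.59, against 2.95, and in the 70 to 90% zone 7.37, against 8.80. The 10 to 30% zone had the opposite order, with 5.31 in the domains and 4.98 in the zone. Domain counts took any overlap, including genes that cross an edge, while zones and chromosomes counted each gene once. Of the 1018 genes, 904 lay wholly inside a domain, so the domain values run high in this comparison. Whether the order in the 10 to 30% zone holds with equal counting was not tested. At least 1 coding gene was overlapped by 48.4% of the wide domains with positions as given, against 65.0% to 69.1% with the genes moved by 100 to 5000 kb, although the genes per Mb were above the average of the chromosomes. The wide domains with no coding gene numbered 230, and their median fold was 6.12 ± 0.25, against 10.2 ± 0.30 in the 216 domains with at least 1 (SD, n = 3 each); 50.4% and 63.4% of these were distal. At least 10 coding genes were overlapped by 20 domains. The highest number was 46, in a domain of 375 kb on 4H from 609820898 to 610195804, with folds of 50.7, 45.0 and 50.2 in replicates 1, 2 and 3; it was chosen after its values were seen. The strongest domain of 1H overlapped 26.

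Ribosomal RNA genes, which lie in long tandem arrays in cereals, were concentrated in a few wide domains. Of the 8416 rRNA genes that the table places on the chromosomes, 7872 (93.5%) lay in 8 of the 446 domains, and 133 (1.58%) in narrower regions. The domain of 2314 kb on 2H, the second widest, held 6488, all under 200 bases long with a median of 119, and it overlapped 200 pseudogenes and 0 coding genes. A domain on 7H from 250132311 to 250586900 held 620 of the same median length, with folds of 3.57, 3.06 and 2.94. The nearly touching pair on 5H, separated by 3.63 kb, held 308 and 18, with median lengths of 1811 and 984 bases. The others were on 6H from 81952871 to 82438376 with 145, on 4H from 573569335 to 573665417 with 142, on 1H from 132069701 to 132527132 with 118, and on 7H from 199363472 to 199527766 with 33. How reads from repeated copies were placed is not given in the sources used here.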
